A study of Mus musculus with 9 samples.

Results

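Hearts that lacked both the type IV collagen chain encoded by Col4a3 and osteopontin were compared with wild type hearts. The comparison took all 6 arrays of these groups from a series of 9, namely 3 Col4a3-/-OPN-/- hearts and 3 wild type hearts, each on 1 Affymetrix mouse gene array. OPN in the labels stands for osteopontin, the product of Spp1. All mice were 2 months old, and each array held total RNA of a snap frozen heart. The labels give no strain, sex, litter or drug treatment, and no allele other than those in the genotype names. The remaining group of 3 Col4a3-/- hearts of the same age shares the Col4a3 mutation with the double mutants, and its values are given beside selected genes without a test. Of 33793 probe sets, 23521 carried 1 gene symbol. The 13650 of them with a mean log2 signal over the 9 arrays above 5.21, the median of all probe sets, were tested and stood for 13085 of the 22180 genes named by such probe sets. At this limit Ctu1 lay just inside, with means of 5.19 in wild type and 5.25 in Col4a3-/-OPN-/- hearts, and Muc3a just outside, with 5.35 and 5.21.

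The product of Col4a3 assembles with those of Col4a4 and Col4a5 into a type IV collagen network of mature basement membranes, best known from the glomerulus of the kidney. Mice without Col4a3 are a model of Alport syndrome, a hereditary kidney disease. Osteopontin is a secreted phosphoprotein that binds integrins and CD44, and it is known for its rise in injured heart, kidney and vessel wall. The genotype names give no tissue or promoter that would limit either deletion to the heart. A whole heart mixes myocytes, vessels, fibroblasts, blood cells and nerve, and in such tissue fewer cells of a type and less RNA per cell cannot be told apart.

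The sequences shown first belong to the genes at the top of the comparison. They are promoter windows from 250 bases before to 50 bases after the gene start, taken from RefSeq on build GRCm38.p6 and written 5′ to 3′ on the strand of the gene. Ppbp, Gp9 and P2ry12, genes of platelets that were among the 10 higher genes with the smallest p, are printed with GGAAGT or its reverse complement ACTTCC in capitals, the core bound by ETS family factors. Each of the 3 windows held 1 match, and 23.8% of the 32851 promoters searched held at least 1. The window of Pf4, a platelet gene whose groups overlapped, held 1 match as well and is not printed.
Ppbp chr5:90768268-90768567 (+): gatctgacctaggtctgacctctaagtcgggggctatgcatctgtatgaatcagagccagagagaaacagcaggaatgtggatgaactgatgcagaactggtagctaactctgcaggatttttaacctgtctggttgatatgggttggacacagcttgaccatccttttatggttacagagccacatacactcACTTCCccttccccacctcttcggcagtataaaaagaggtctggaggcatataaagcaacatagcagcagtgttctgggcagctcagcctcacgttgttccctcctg
Gp9 chr6:87777820-87778119 (+): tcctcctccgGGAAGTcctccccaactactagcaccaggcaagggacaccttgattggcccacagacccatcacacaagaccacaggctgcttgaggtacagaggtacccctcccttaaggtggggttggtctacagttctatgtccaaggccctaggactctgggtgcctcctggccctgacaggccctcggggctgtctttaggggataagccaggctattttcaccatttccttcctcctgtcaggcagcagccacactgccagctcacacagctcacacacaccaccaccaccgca
P2ry12 chr3:59262936-59263235 (-): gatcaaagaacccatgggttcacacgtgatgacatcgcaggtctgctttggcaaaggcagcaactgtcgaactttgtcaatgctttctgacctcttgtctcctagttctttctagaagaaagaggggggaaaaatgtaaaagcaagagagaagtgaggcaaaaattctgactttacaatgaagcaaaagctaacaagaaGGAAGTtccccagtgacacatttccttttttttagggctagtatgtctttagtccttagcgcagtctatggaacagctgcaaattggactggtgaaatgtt
GATAA, the core of GATA factor sites, was searched on both strands as well. It was found in Gp9 and Pf4 and in 25.4% of all promoters, and the letters were not in the windows of Ppbp and P2ry12. The promoter of the clock gene Per3 is printed with TTATGTAA, a D-box, in capitals. This motif, searched on both strands, had 2 matches in the Per3 window and occurred in 0.938% of all promoters. The windows of the clock genes Arntl and Nr1d1, searched in the same way, held no match.
Per3 chr4:151044616-151044915 (-): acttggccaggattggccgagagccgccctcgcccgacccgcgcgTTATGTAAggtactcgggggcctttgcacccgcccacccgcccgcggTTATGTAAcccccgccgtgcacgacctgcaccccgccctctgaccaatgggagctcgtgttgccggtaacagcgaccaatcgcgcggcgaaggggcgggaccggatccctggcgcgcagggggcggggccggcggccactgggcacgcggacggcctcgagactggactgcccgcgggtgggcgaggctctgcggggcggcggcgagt
Of 107 microRNA genes tested, 88 had a mature sequence in RefSeq. The 2 microRNA precursors with the largest log2 differences among the higher ones at an unadjusted p under 0.01 encode the mature sequences below, with the seed (bases 2 to 8) in capitals.
mmu-miR-5123 chr4:40850057-40850080 (-): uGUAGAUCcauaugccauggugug
mmu-miR-5125 chr17:23823339-23823358 (+): uCUGCCUGggauuuccuugu

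Targeted genes and sex were checked first. Col4a3 had a single probe set below the signal limit, at 5.07, 5.31 and 5.52 in wild type and 5.17, 4.87 and 5.26 in Col4a3-/-OPN-/- hearts, so it gave no check of the genotype. Spp1 has no probe set with 1 symbol among the values used here and was not analysed here. Xist, the RNA that coats the inactive X chromosome of females, was 4.52, 8.56 and 4.57 in the 3 Col4a3-/-OPN-/- hearts and 4.55, 4.74 and 4.56 in wild type. Eif2s3y, a gene of the Y chromosome, was 8.30, 4.75 and 8.09 against 8.39, 8.24 and 8.26. Heart 2 of the Col4a3-/-OPN-/- group thus had high Xist and low Eif2s3y, and the other 5 hearts the reverse. Some results that move when heart 2 of the double mutants is left out are given without it as well, but not all. Array medians lay between 5.18 and 5.22, and Pearson's r over all probe sets between any 2 of the 6 arrays was 0.976 to 0.986. The lowest of these was between wild type heart 2 and Col4a3-/-OPN-/- heart 1.

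No gene passed the test across all probe sets. With limma, 0 of 13650 probe sets had a Benjamini-Hochberg adjusted p under 0.05 (0% called), and the smallest adjusted p was 0.302, for Ppbp. Without adjustment, 1000 probe sets (7.33%) had p under 0.05, 573 (4.2%) of them higher and 427 (3.13%) lower in Col4a3-/-OPN-/- hearts. Leaving out Col4a3-/-OPN-/- heart 1 lowered the higher ones to 369. When each array was centred on its own median, these counts became 329 higher and 772 lower, so the balance of directions depends on the scaling, while the median difference over all probe sets moved only from 0.01 to -0.03. In 1801 probe sets (13.2%) the 3 values of one group lay entirely above those of the other, with 1030 (7.55%) higher and 771 (5.65%) lower. Counted by gene, 923 of 13085 (7.05%) were under an unadjusted p of 0.05, with 4.03% higher and 3.03% lower, and 1710 (13.1%) had groups that did not overlap, with 7.5% higher and 5.56% lower. A positive difference of any size was found in 53.6% of the genes. These shares are the background for every list below. Leaving out 1 heart at a time moved the median difference of each of 47 lists by over 1.5 times in at least 1 case and turned the sign of 28, so list medians are given as descriptions of these 6 hearts. With 1 heart left out, in 1 setting together with the trend with gene span described below, the medians ran from 0.16 to 0.35 for platelet genes, -0.025 to 0.16 for basement membrane, 0.008 to 0.17 for osteopontin receptors, -0.15 to -0.042 for smooth muscle, -0.20 to -0.077 for atrial genes, -0.099 to 0.0035 for complex I and -0.027 to 0.15 for macrophages. Standard errors of the log2 differences had a median of 0.12, and 6 arrays limit the precision. In simulated arrays with the noise of these 6, the same fit recovered 94% of 50 probe sets changed by 1 log2 unit and 38% of 50 changed by 0.5. That simulation changed 200 probe sets in all, by up to 3 log2 units, with noise drawn separately for each probe set. Its 170 calls eased the adjusted threshold, so these shares are not the power of the real comparison. Nothing separates the 3 hearts of a genotype in the labels beyond their numbers, so the p-values measure the spread between these samples.

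**Figure D1:**
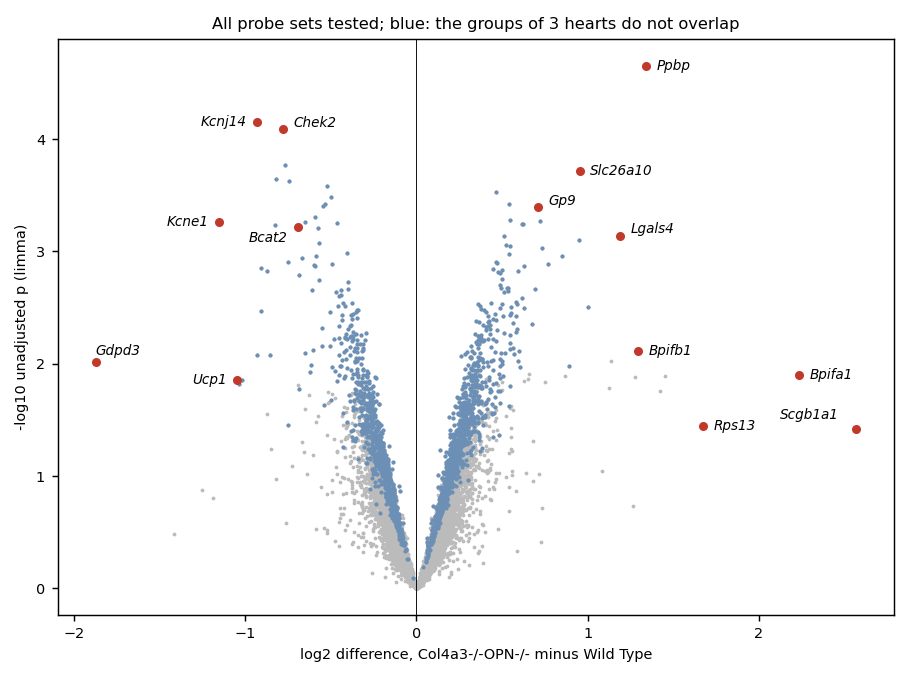
Each point is 1 of the 13650 probe sets tested, with the log2 difference between Col4a3-/-OPN-/- and wild type hearts on the horizontal axis and −log10 of the unadjusted limma p on the vertical axis. Blue points are probe sets whose groups of 3 hearts do not overlap, and red points with names are genes given in the text; Ppbp stands at the top with a difference of 1.34 and an adjusted p of 0.302.

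Platelet genes headed the higher side. Ppbp, which encodes the platelet chemokine pro-platelet basic protein, was 5.14, 5.52 and 5.22 in wild type and 7.01, 6.46 and 6.44 in Col4a3-/-OPN-/- hearts. The groups did not overlap, with a log2 difference of 1.34 (SE 0.17, adjusted p = 0.302). The 3 Col4a3-/- hearts were at 4.89, 4.95 and 5.37, in the range of wild type or below. Gp9, a subunit of the platelet receptor for von Willebrand factor, was 5.94, 5.91 and 5.58 against 6.54, 6.64 and 6.38, with a log2 difference of 0.71 (SE 0.13, adjusted p = 0.341). P2ry12, the platelet ADP receptor that is also a marker of microglia, was 5.54, 5.27 and 5.39 against 6.01, 5.96 and 5.86, with a log2 difference of 0.54 (SE 0.10, adjusted p = 0.341). In both genes every double mutant heart exceeded every wild type heart, though neither passed the adjusted threshold. The platelet and megakaryocyte list had 11 genes, of which 6 were tested: 5 had a positive difference, 3 were higher at an unadjusted p under 0.05, and the median was 0.28 against 0.01 over all genes. Beside Ppbp and Gp9 this was Itgb3, the beta chain of the fibrinogen receptor, at 0.28 (SE 0.11). The list includes Ppbp and Gp9 themselves and was chosen with earlier results of these data known. Its count and median are thus no separate evidence beside those genes. Pf4, the chemokine gene next to Ppbp on chromosome 5, overlapped between the groups, at 6.85, 6.90 and 6.25 in wild type and 7.19, 6.73 and 6.92 in double mutants. Itga2b, the alpha chain that pairs with Itgb3, differed by -0.04 (SE 0.11) and Treml1, a platelet granule receptor, by 0.07 (SE 0.16). With arrays centred on their medians, the list kept 5 positive members, with 2 at an unadjusted p under 0.05. Of 10 erythroid genes listed, only 3 were tested. All 3 had negative differences, of which 1 was under an unadjusted p of 0.05. This was Slc4a1, the band 3 anion exchanger of red cells, at -0.35 (SE 0.09). The median of the erythroid list was -0.15, and it ran from -0.25 to -0.0007 with 1 heart left out.

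The other higher genes with the smallest p had varied functions. Slc26a10, of the SLC26 anion transporter family, was 7.01, 6.98 and 7.14 in wild type and 7.95, 8.35 and 7.69 in double mutants, with a log2 difference of 0.95 (SE 0.16, adjusted p = 0.341). Uaca, which encodes a coiled-coil protein, was 6.69, 6.69 and 6.58 against 7.23, 7.18 and 7.17, with a narrow spread in both groups. Its log2 difference was 0.54 (SE 0.10). Msr1, the class A scavenger receptor of macrophages, differed by 0.46 (SE 0.08), with a wild type mean just below the limit of the signals tested. Slc41a1, a magnesium transporter, differed by 0.62 (SE 0.12), Nedd1, a centrosomal protein that anchors the gamma-tubulin ring, by 0.62 (SE 0.12), and the long noncoding RNA B930095G15Rik by 0.72 (SE 0.14). Lgals4, which encodes galectin-4, was 6.16, 6.91 and 6.20 against 7.15, 7.85 and 7.84, with a log2 difference of 1.19 (SE 0.24, adjusted p = 0.37). All these genes had adjusted p of 0.341 to 0.37. Among genes with large differences and no overlap, Ndrg4, of the NDRG family and known from heart and brain, differed by 0.95 (SE 0.19). Bdh1, the mitochondrial enzyme that oxidises beta-hydroxybutyrate, differed by 0.89 (SE 0.28) and Slc1a5, a glutamine transporter, by 0.85 (SE 0.18). In Bdh1 much of the spread came from wild type heart 2, at 6.08 against 7.25 and 7.11 in the others, and without it the difference was 0.52.

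Ion channel genes differed in both directions, and of 18 tested 14 had a positive difference. Kcnj14, an inward rectifier potassium channel that is not on this list, had the smallest p among all lower genes. Its values were 6.94, 6.70 and 6.49 in wild type and 5.89, 5.82 and 5.63 in double mutants, with a log2 difference of -0.93 (SE 0.14, adjusted p = 0.341). Kcne1, the beta subunit of the slow delayed rectifier channel in which Kcnq1 forms the pore, was 7.42, 7.24 and 6.71 against 6.06, 6.30 and 5.55, with a log2 difference of -1.15 (SE 0.22, adjusted p = 0.341). It had the largest log2 difference among lower genes whose groups did not overlap. The Col4a3-/- hearts varied widely for Kcne1, at 7.79, 7.12 and 6.08, which reached from above wild type to the level of the double mutants. Kcnj11, the pore of the cardiac ATP-sensitive potassium channel, was 7.18, 7.42 and 7.76 against 8.20, 7.96 and 7.84, a difference of 0.55 (SE 0.16). Scn4b, a sodium channel beta subunit, differed by 0.51 (SE 0.14), Kcnj5, a subunit of the acetylcholine-activated atrial channel, by 0.33 (SE 0.13), and Kcnh2, the rapid delayed rectifier, by 0.33 (SE 0.11). Adjusted p lay between 0.341 and 0.653 for these genes. Of the 18 on the list, 4 were higher and 1, Kcne1, lower at an unadjusted p under 0.05 (27.8%), and the same 5 had groups that did not overlap. The list median was 0.07. With arrays centred, 3 were higher and 2 lower, and after removal of the trend with gene span described below, 4 were higher and 2 lower.

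The remaining lower genes with the smallest p included Hddc3, a hydrolase related to bacterial stringent response enzymes, at 7.78, 7.46 and 7.36 against 6.88, 6.56 and 6.70, with a log2 difference of -0.82 (SE 0.14, adjusted p = 0.341). Ly96, the MD-2 coreceptor of Tlr4, was 8.46, 8.42 and 8.53 against 7.96, 7.93 and 7.96, with a log2 difference of -0.52 (SE 0.09, adjusted p = 0.341). Mfap4, a matrix glycoprotein associated with elastic fibres, differed by -0.55 (SE 0.10) and Sh3gl2, an endophilin of vesicle uptake, by -0.53 (SE 0.10). The olfactory receptor gene Olfr1502 differed by -0.77 (SE 0.13), Gm5779 by -0.50 (SE 0.09) and the pseudogene Gm4945 by -0.59 (SE 0.11). Olfr1502 and Gm5779 had double mutant means below the limit of the signals tested. Chek2 and Cryba4, also in this group, are described with their neighbours on chromosome 5. Among lower genes with the largest differences and no overlap, Wif1, a secreted inhibitor of Wnt ligands, differed by -0.91 (SE 0.20), Cpa3, the carboxypeptidase of mast cells, by -0.87 (SE 0.20), Lgr6, a receptor for R-spondins, by -1.02 (SE 0.34), and Scgb1c1, a secretoglobin, by -0.91 (SE 0.23). Psca differed by -1.03 (SE 0.35) and Klk1b22 by -0.86 (SE 0.26). Snord58b, a box C/D small nucleolar RNA, was 8.85, 8.85 and 8.76 against 7.10, 8.12 and 8.44, a difference of -0.93 (SE 0.28), with the lowest value in double mutant heart 1. Without that heart it was -0.54. Wild type heart 2 moved Lgr6 and Klk1b22, to -0.58 and -0.50 without it, and wild type heart 1 moved Psca, to -0.58.

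**Figure D2:**
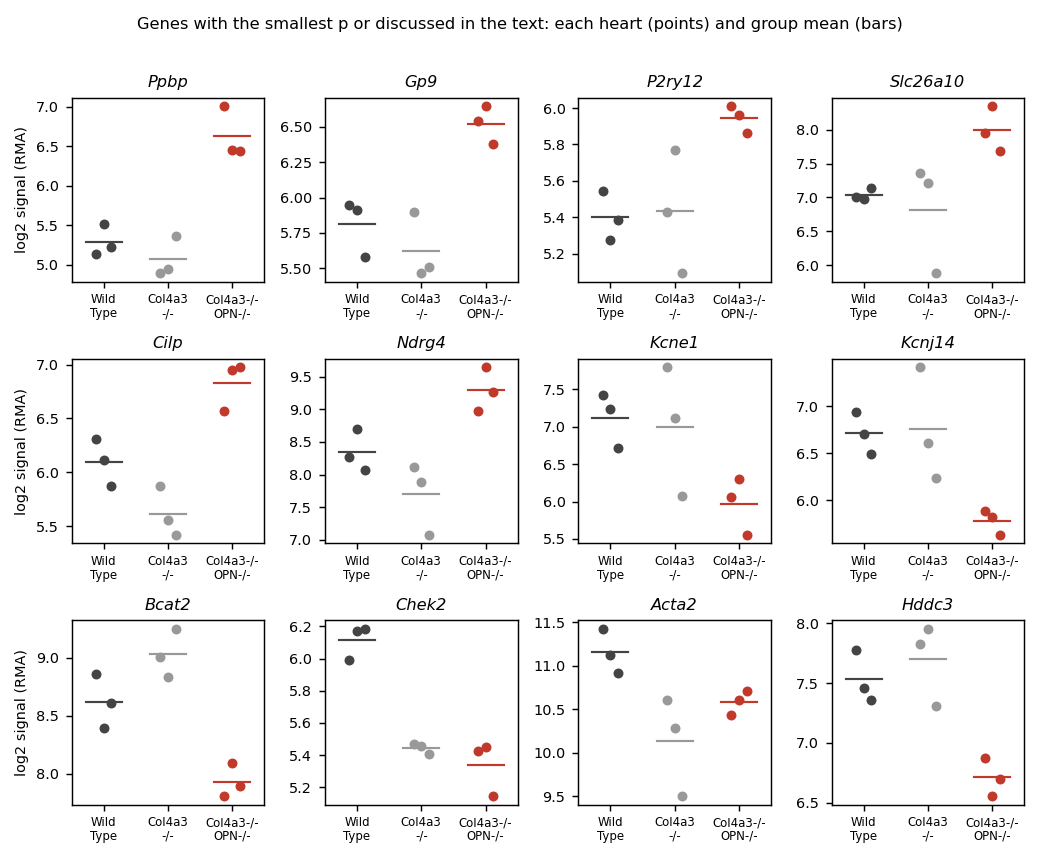
Points are the log2 signals of single hearts for 12 genes, in wild type, Col4a3-/- and Col4a3-/-OPN-/- groups, and bars are group means; each panel has its own vertical axis. In all 12 genes the 3 Col4a3-/-OPN-/- hearts lie on one side of the 3 wild type hearts, while Chek2 is at 5.41 to 5.47 in the Col4a3-/- hearts, beside the double mutants.

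Basement membrane and integrin genes bear on the molecules that were deleted. Of 23 basement membrane genes tested, 17 had a positive difference, and 4 (17.4%) were higher and none lower at an unadjusted p under 0.05, with a median of 0.07. Col4a5, the chain that joins the Col4a3 product in its network, was 6.62, 6.42 and 6.61 in wild type and 7.01, 6.75 and 6.87 in double mutants, a difference of 0.33 (SE 0.12). The others were the laminin chains Lamc1 at 0.29 (SE 0.11) and Lamb1 at 0.25 (SE 0.10), and the laminin-binding nidogen Nid2 at 0.27 (SE 0.12). All 4 had groups that did not overlap, with adjusted p of 0.643 to 0.681. Without double mutant heart 1, Nid2 was at 0.16 and Lamc1 at 0.19, and without that heart and the span trend they were at 0.13 and 0.17. After the trend with gene span was removed, 11 of 23 were positive, 2 were higher at an unadjusted p under 0.05 and the list median was -0.01. The integrin chains and Cd44 that bind osteopontin gave 10 positive differences among 11 genes, with a median of 0.10 and 2 at an unadjusted p under 0.05 (18.2%). These were Itga4 at 0.31 (SE 0.12) and Itgb3, which is also on the platelet list. Itga8, the partner of Itgb1 in smooth muscle, was the 1 negative member, at -0.22 (SE 0.13). With the span trend removed 9 were positive, none was higher and 1 was lower at an unadjusted p under 0.05.

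Interstitial matrix genes showed no common direction, with 22 positive and 18 negative differences among 40 genes and a median of 0.02, or -0.03 with arrays centred. Cilp, a matrix protein of cartilage and of cardiac fibroblasts, was 6.30, 6.12 and 5.87 in wild type and 6.57, 6.95 and 6.97 in double mutants, with a log2 difference of 0.73 (SE 0.15, adjusted p = 0.4). The Col4a3-/- hearts were at 5.87, 5.56 and 5.42, and only 1 of them reached the lowest wild type value. Comp, a thrombospondin of tendon and vessel wall, was lower, at -0.33 (SE 0.14). Tnc, the injury-associated glycoprotein tenascin C, was 6.53 in double mutant heart 1 and 5.40 and 5.14 in the others, which overlapped wild type values of 5.28, 5.08 and 5.04. Of 13 cardiac fibroblast markers, none was under an unadjusted p of 0.05, with 1 after renewed quantile normalization. Hypertrophy and fetal genes were likewise balanced, with 9 of 17 positive. Myh7, the slow myosin heavy chain, was 8.66, 6.99 and 6.94 in wild type and 7.96, 7.51 and 9.32 in double mutants. Nppb, the B-type natriuretic peptide, was 11.04, 10.99 and 9.81 against 10.26, 10.45 and 10.12. The 2 that were lower at an unadjusted p under 0.05 were Rcan1, a calcineurin inhibitor and target, at -0.52 (SE 0.22) and Tnni1, slow skeletal troponin I, at -0.32 (SE 0.10).

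Vessel and chamber markers differed in part. Acta2, smooth muscle alpha-actin, was 11.42, 11.13 and 10.91 in wild type and 10.44, 10.61 and 10.71 in double mutants, with a log2 difference of -0.57 (SE 0.13, adjusted p = 0.443). The smooth muscle list had 10 of 14 negative differences and a median of -0.12. In 6 of the 14 genes (42.9%, against 13.1% over all genes) the groups did not overlap, 4 lower and 2 higher. The 2 higher ones were Myh11, smooth muscle myosin, at 0.21 (SE 0.10) and Synpo2, at 0.18 (SE 0.09). Only Acta2 (7.14% of the list) was lower at an unadjusted p under 0.05 and none was higher, against 7.05% over all genes. Myh11 was 6.90, 7.01 and 6.72 in Col4a3-/- hearts, below 7.83, 8.01 and 7.99 in wild type and 8.15, 8.14 and 8.17 in double mutants. Of 10 pericyte genes 6 were positive, with a median of 0.15 and 1 at an unadjusted p under 0.05. This was Notch3, a receptor of vascular mural cells, at 0.46 (SE 0.17). Of 14 endothelial genes 8 were positive, with a median of 0.02 and 1 at that p, Flt1, the endothelial VEGF receptor 1, at 0.37 (SE 0.11). Of 7 endocardial and lymphatic endothelial genes 5 were positive, with a median of 0.05 and 1 at that p, Prox1, a transcription factor of lymphatic endothelium and of cardiomyocytes, at 0.48 (SE 0.11). Among 12 atrial genes, 9 were negative with a median of -0.16. Myl7, the atrial light chain, at -0.32 (SE 0.12) and Bmp10, an atrial ligand, at -0.26 (SE 0.10) were under an unadjusted p of 0.05. The share of atrium in each sample is not given in the labels, and its part in these values was not tested. Irx4, a transcription factor of the ventricle, was higher at 0.49 (SE 0.15), and 10 of 14 ventricular genes were positive, 8 after centring of the arrays, with a median of 0.05.

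Energy metabolism lists stayed near 0. Among 33 complex I subunits, 23 differences were negative, the median was -0.06, and none was under an unadjusted p of 0.05. Complexes II to IV had 18 negative differences among 25 and a median of -0.06. The widest was Cox7b, of complex IV, at -0.37 (SE 0.17). ATP synthase (14 genes, median -0.02), the tricarboxylic acid cycle (22 genes, 0.01) and fatty acid oxidation (24 genes, 0.05) had no member under that p. Centring the arrays moved the complex I median to -0.10 and that of complexes II to IV to -0.11, and renewed quantile normalization to -0.03 in both. The small medians changed sign with the scaling, to 0.03 for ATP synthase with renewed quantile normalization and to -0.04 for the tricarboxylic acid cycle with arrays centred. Branched-chain amino acid catabolism held 1 lower gene at an unadjusted p under 0.05. Bcat2, the mitochondrial branched-chain aminotransferase, was 8.86, 8.39 and 8.61 in wild type and 7.81, 8.09 and 7.89 in double mutants, with a log2 difference of -0.69 (SE 0.14, adjusted p = 0.341), while the Col4a3-/- hearts were at 9.01, 8.84 and 9.25. Of the other 18 genes of branched-chain amino acid catabolism, Ppm1k, the phosphatase that activates the branched-chain ketoacid dehydrogenase, was higher at 0.23 (SE 0.08). The list median was 0.05. In glucose use, 3 of 16 genes were higher at an unadjusted p under 0.05 (18.8%). They were Slc2a1, the GLUT1 transporter, at 0.39 (SE 0.11), and the hexokinases Hk2 at 0.33 (SE 0.13) and Hk1 at 0.29 (SE 0.13). Later enzymes such as Gapdh, at -0.12 (SE 0.08), were not, and the list median was -0.03, or 0.01 with renewed quantile normalization. With arrays centred, 1 of the 16 was higher and 1 lower at that p.

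Clock genes differed in both directions, with 1 of 17 higher and 2 lower at an unadjusted p under 0.05. Per3, a period gene whose promoter with 2 D-box matches is printed above, was 6.14, 6.27 and 6.66 in wild type and 6.87, 6.93 and 6.91 in double mutants, with a log2 difference of 0.55 (SE 0.14, adjusted p = 0.513). Arntl, the BMAL1 activator, was 7.88, 6.95 and 6.58 against 6.64, 6.65 and 6.12, a difference of -0.67 (SE 0.30), and Nr1d1, the REV-ERB alpha repressor, differed by -0.41 (SE 0.18). Per3 had no overlap, and Arntl and Nr1d1 overlapped. Without wild type heart 1, which had the highest Arntl, its difference was -0.29, and it was -0.49 when double mutant heart 3 was left out instead. The hour of tissue collection is not in the labels, and its part in these values was not tested. Immediate early genes had 17 of 19 positive differences and a median of 0.13, none under an unadjusted p of 0.05. The median was 0.033 without double mutant heart 2 and 0.29 without heart 3. Nr4a1, an orphan nuclear receptor of this class, was 8.20, 8.46 and 7.06 against 8.27, 8.82 and 8.26, where wild type heart 3 was lowest and the difference went from 0.54 to 0.12 without it.

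Immune lists held few differences. Of 18 macrophage and monocyte genes, 16 were positive (12 with arrays centred), with a median of 0.08. Gpnmb, a glycoprotein of lipid-laden macrophages, was the 1 at an unadjusted p under 0.05, at 5.60, 5.69 and 5.59 against 6.01, 5.78 and 6.07. The interferon response was balanced, with 10 of 19 positive and 8 with arrays centred. Oasl2, an interferon-induced gene of the oligoadenylate synthase family, differed by 0.55 (SE 0.24), with overlap. H2-T23, a nonclassical class I molecule, differed by 0.32 (SE 0.12), Cxcl12, the ligand of Cxcr4, by 0.40 (SE 0.15), and Cd3e, of the T cell receptor complex, by -0.23 (SE 0.09). Outside the immune lists, Cyp2d22, a drug-metabolising cytochrome P450, was 7.10, 7.64 and 7.28 against 7.82, 7.88 and 7.96, a difference of 0.55 (SE 0.14). Snap91, a clathrin adaptor of synapses, differed by 0.77 (SE 0.17), Gsta3, a glutathione transferase, by 0.44 (SE 0.15), Cntn2, a contactin of the conduction system, by 0.45 (SE 0.15), and H4c8, a histone gene, by -0.35 (SE 0.10). Hsd11b2, which inactivates glucocorticoids, differed by -0.27 (SE 0.10) and Npr2, the receptor of C-type natriuretic peptide, by 0.24 (SE 0.10). The cell cycle list had 3 of 13 lower at an unadjusted p under 0.05: Chek2, Mcm6 at -0.34 (SE 0.15) and Cdkn1a at -0.41 (SE 0.18). The small heat shock protein gene Hspb1, at -0.32 (SE 0.14), was the 1 of 20 chaperone genes under that p. Adjusted p was at least 0.408 for all genes named here with the exception of Chek2.

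**Figure D3:**
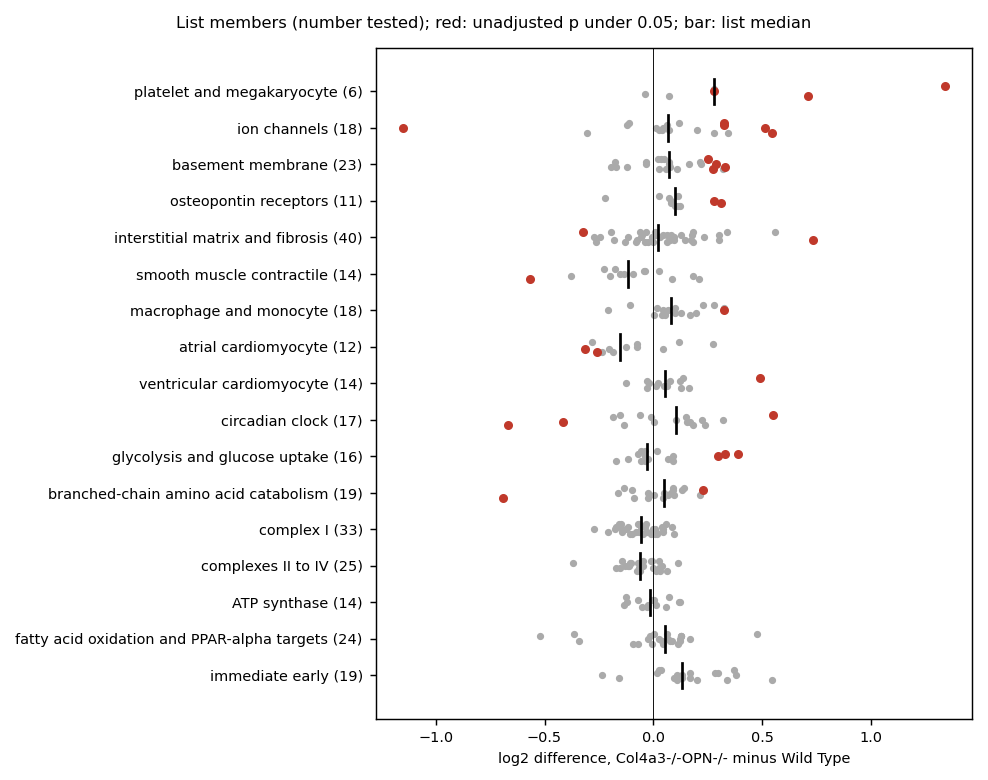
Points are the log2 differences between Col4a3-/-OPN-/- and wild type hearts for the tested members of 17 gene lists, red where the unadjusted limma p is under 0.05, and vertical bars are list medians. Platelet genes have the highest median of the lists drawn, 0.28, while the lists of complex I and complexes II to IV lie close to 0 with medians of -0.06.

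Airway genes separated hearts within the double mutant group. Scgb1a1, the secretory protein of airway club cells, was 9.81, 4.93 and 9.52 in double mutants, 6.10, 5.09 and 5.36 in wild type and 4.54, 12.21 and 4.61 in Col4a3-/- hearts. Bpifa1, a secreted protein of upper airways, was 7.44, 4.51 and 8.05 against 4.46, 4.45 and 4.39, and its relative Bpifb1 was 6.39 ± 0.98 (SD, n = 3) against 5.10 ± 0.09 (SD, n = 3). Cyp2f2, a P450 of club cells, was 6.75, 4.99 and 6.64 against 5.01, 5.06 and 4.95. Double mutant hearts 1 and 3 were high for all 4 genes, and heart 2 was close to the wild type range or inside it. The alveolar marker Sftpb stayed between 4.99 and 5.56 in these 6 hearts, Epcam, a marker of epithelia, between 5.12 and 5.62, and the other 6 of 10 genes on the airway and lung list were below the signal limit. Of those 6, Scgb3a2, another secretoglobin of airways, was 5.26, 4.40 and 5.48 in double mutants and 4.39, 4.45 and 4.31 in wild type. Col4a3-/- heart 2 was the highest of the 9 hearts for Scgb1a1, Cyp2f2, Sftpb and Scgb3a2. The 4 members tested had a median difference of 0.58, with 2 at an unadjusted p under 0.05 and none without overlap. In the whole comparison Scgb1a1 had a log2 difference of 2.57 (SE 1.06, adjusted p = 0.672). Without double mutant heart 2, limma called 7 probe sets: Scgb1a1 (4.15), Bpifa1 (3.31), Bpifb1 (1.86), Cyp2f2 (1.69) and 3 probe sets of the transcribed pseudogene Gm3893 (1.27, 2.16 and 2.16). In Bpifa1, Bpifb1, Cyp2f2 and all 3 probe sets of Gm3893 the wild type mean was below the signal limit of 5.21. They were tested only through the high values of other hearts, so these calls are no independent evidence of a difference and the sizes against wild type are uncertain. The log2 differences compare hearts 1 and 3 with wild type alone, and the part of airway tissue in them was not tested. Ucp1, the uncoupling protein of brown fat, was 8.29, 9.21 and 8.65 in wild type and 8.24, 6.81 and 7.95 in double mutants, a difference of -1.05 (SE 0.35) without overlap, with the lowest value in heart 2. Without heart 2 the difference was -0.62. The Col4a3-/- hearts ranged wider, at 4.79, 11.06 and 5.03. The list of 9 fat genes had 4 positive and 5 negative differences.

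Syne1 contributed more probe sets than any other gene. It encodes nesprin-1, a giant protein that links the nuclear envelope to the cytoskeleton, and 56 of its probe sets were tested. Of these, 55 were higher in double mutants, 30 at an unadjusted p under 0.05 and 22 without overlap, with a median log2 difference of 0.36 and a range from -0.01 to 0.63. Their smallest adjusted p was 0.513. The mean over its probe sets was 6.99, 6.64 and 6.79 in wild type and 7.36, 7.07 and 7.04 in double mutant hearts, so the groups did not overlap. Probe sets of 1 gene share their RNA and are not independent, and without them 547 rather than 573 probe sets were higher at an unadjusted p under 0.05. Syne1 is also a long gene, and the arrays differed with the genomic span of genes. From the shortest to the longest of 10 classes of protein-coding genes, the median difference went from -0.06 to 0.08, and in double mutant heart 1 alone from -0.10 to 0.18. In the shortest class 2.04% of genes were higher and 5.71% lower at an unadjusted p under 0.05, and in the longest 6.61% and 1.55%. With this trend removed from each array, the Syne1 median was 0.25 with 18 probe sets at that p, and when heart 1 was left out too it was 0.19 with 12. Leaving out wild type heart 2, wild type heart 3 or double mutant heart 1 alone left 12, 14 and 14 probe sets at that p. The part of RNA quality or labelling in the trend was not tested.

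**Figure D4:**
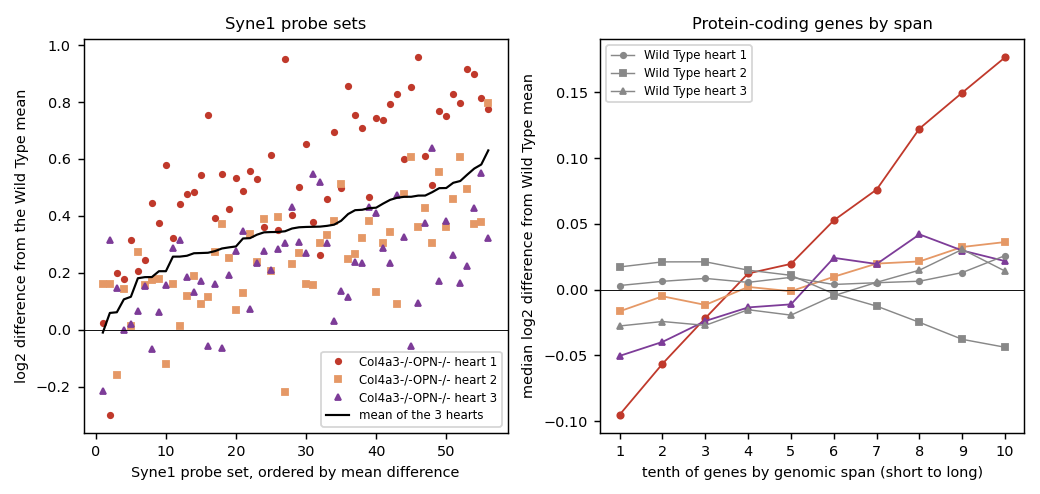
The left panel gives, for each of 56 Syne1 probe sets, the log2 difference of each Col4a3-/-OPN-/- heart from the wild type mean (symbols) and the mean of the 3 hearts (line), ordered by that mean. The right panel gives the median log2 difference of single hearts from the wild type mean for 10 classes of protein-coding genes by genomic span, where heart 1 of the Col4a3-/-OPN-/- group rises from -0.10 to 0.18 and the other hearts stay closer to 0.

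RNA classes other than protein-coding genes were counted apart. Of 62 pseudogenes tested, 54 had a negative difference, with 13 lower and 1 higher at an unadjusted p under 0.05 (22.6%), and the median was -0.17. Gm4945, given above, was among them. With the span trend removed, 44 of 62 were negative and 11 lower at that p. Of 81 transcribed pseudogenes, 45 were negative, with 4 lower and 5 higher at that p and a median of -0.03. Probes of the array cannot always separate a pseudogene from its parent gene. Of 73 small nucleolar RNAs, 57 were negative, 7 were lower and 1 higher at that p, with a median of -0.15. The count of lower ones went to 2 without wild type heart 2, 3 without double mutant heart 1, 11 without heart 2 and 19 without heart 3. Snord13, a box C/D small nucleolar RNA, differed by -0.57 (SE 0.11) and Snord118, the U8 RNA of ribosome assembly, by 0.54 (SE 0.11), in the higher direction. Without the span trend and without heart 1, 36 of 73 small nucleolar RNAs were negative. MicroRNA precursors had a median of -0.07, with 7 higher and 9 lower among 107 (15%). Mir5123, whose mature form is printed above, was 5.11, 5.45 and 5.54 in wild type and 7.03, 5.99 and 6.07 in double mutants, without overlap (adjusted p = 0.513), and the Col4a3-/- hearts were at 5.74, 7.40 and 6.29. Mir5125 differed by 0.50 (SE 0.11), Mir665 by 0.32 (SE 0.10) and Mir677 by 0.34 (SE 0.10). Mir375, known from pancreatic islets, was lower at -0.44 (SE 0.13) and Mir191 at -0.40 (SE 0.10). These signals were taken as those of the primary or precursor transcript, although the labelling kit named in the protocols is meant for small RNA. Which form was read is not known, so these values are no measure of the mature microRNA.

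Beyond Spp1 on chromosome 5, several genes had lower values in double mutants. This region was looked at after the values were known. Counted in tested genes from Spp1, 11 of the next 150 had an unadjusted p under 0.01 (7.33%, against 1.63% over all genes), and all 11 were lower in double mutants, against 0.741% of all genes. In each the groups did not overlap. The 150 as a whole had 70 positive differences and a median of -0.02, and 4 were higher and 15 lower at an unadjusted p under 0.05. The 11 genes began with Chek2, gene 50 after Spp1, and ended with Tesc, gene 131. Chek2, the checkpoint kinase of the DNA damage response, was 5.99, 6.17 and 6.18 in wild type, 5.43, 5.45 and 5.14 in double mutants and 5.47, 5.45 and 5.41 in Col4a3-/- hearts, with a log2 difference of -0.78 (SE 0.12, adjusted p = 0.341) for the double mutants. Sirt4, a mitochondrial sirtuin, was 6.58, 6.72 and 6.41 against 5.92, 6.15 and 5.87, a difference of -0.59 (SE 0.13). Coq5, a methyltransferase of ubiquinone synthesis, was 11.13, 11.01 and 10.79 against 10.43, 10.67 and 10.57, a difference of -0.42 (SE 0.11), and Gatc, a subunit of a mitochondrial amidotransferase, differed by -0.41 (SE 0.13). The crystallin genes Cryba4 and Crybb1 differed by -0.74 (SE 0.13) and -0.37 (SE 0.10), Asphd2 by -0.44 (SE 0.10), Aym1 by -0.61 (SE 0.18) and Tesc, the calcium-binding tescalcin, by -0.35 (SE 0.10). For 4930515G01Rik and 1500011B03Rik the differences were -0.69 and -0.55. Adjusted p of the 11 genes ran from 0.341 to 0.58. In genes 1 to 50 after Spp1, 1 was higher and 1 lower at an unadjusted p under 0.05 (4%), in genes 51 to 100 it was 3 and 7 (20%) and in genes 101 to 150 none and 7 (14%), against 7.05% over all genes. The other 13 groups of 50 neighbouring genes on chromosome 5 gave 0% to 12%, and the 14 such groups along chromosome 1, which holds Col4a3, gave 2% to 14%. Of the 150 genes before Spp1, 3 were higher and none lower at an unadjusted p under 0.01, among them Ppbp. Before Col4a3 it was 3 higher and 2 lower, and after it 1 higher and none lower. For these lower genes, hearts 2 and 3 of the Col4a3-/- group were also near the double mutants in several, as in Sirt4 with 6.43, 6.16 and 5.99 and Coq5 with 10.96, 10.56 and 10.38. The genetic background next to the deleted genes is not in the labels, and its part was not tested. In the fit of all 9 arrays 4 of the genes after Spp1 were lower at an unadjusted p under 0.01, and leaving out single hearts gave 6 (without wild type heart 2 or double mutant heart 1) to 9, with 3 higher without wild type heart 3. A stretch of chromosome 7 holds Bcat2, Kcnj14 and Kcnj11 within 17 tested genes of Bcat2. Bcat2 and Kcnj14 were lower and Kcnj11 was higher. In its block of 50 genes 3 were higher and 7 lower at an unadjusted p under 0.05 (20%), and the median difference was -0.03. That share was the highest among 250 such blocks along all chromosomes, which had a median of 6%. As the largest of 250 shares, it is no separate evidence of a difference in this region.

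**Figure D5:**
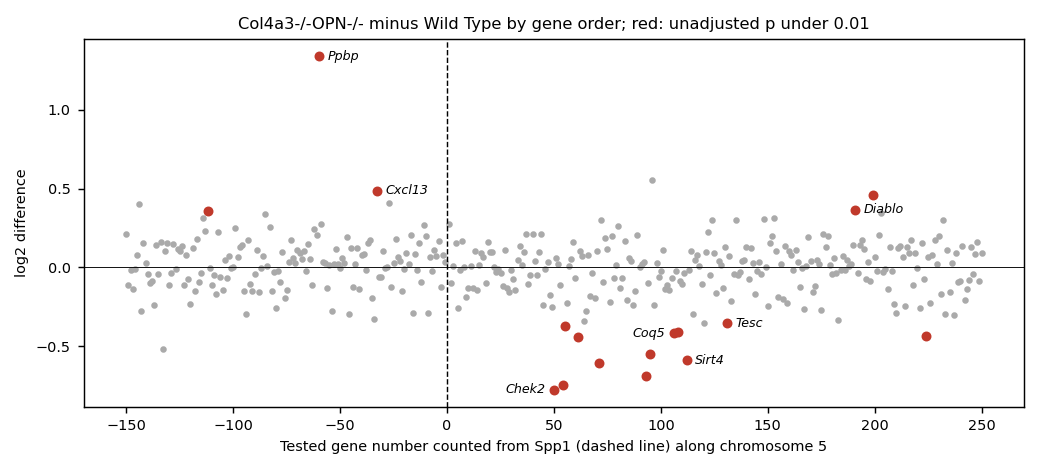
Each point is a tested gene of chromosome 5, placed by its number counted from Spp1 (dashed line), with its log2 difference between Col4a3-/-OPN-/- and wild type hearts on the vertical axis and red marking an unadjusted limma p under 0.01. The 11 red points between genes 50 and 131 all lie below 0, whereas Ppbp, before Spp1, stands at 1.34.

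Probe sets without a single gene name held the 2 calls of the comparison. Among 3246 such probe sets above the same signal limit, tested as a set of their own, limma called 2 at an adjusted p under 0.05, both lower. Probe set 17503531, which carries 3 symbols, was 9.08, 8.26 and 8.51 in wild type and 5.10, 4.89 and 5.48 in double mutants, with a log2 difference of -3.46 (SE 0.23, adjusted p = 0.00167), and 9.53, 8.92 and 9.73 in Col4a3-/- hearts. Probe set 17440132, with no symbol listed, was 9.83, 10.07 and 9.73 against 7.90, 8.29 and 8.45, with a log2 difference of -1.66 (SE 0.17, adjusted p = 0.0161), and 10.30, 10.43 and 10.54 in Col4a3-/- hearts. In both, every double mutant heart was below each of the other 6 hearts.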

How the data were processed

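RNA of 9 mouse hearts had been measured on Affymetrix mouse gene arrays. The deposited values are log2 signals per probe set made with RMA, per the submitters' processing notes. No version is given in the sources used here. Per the labels' protocols, a mirVana PARIS kit served for isolation and a FlashTag kit for labelling. FlashTag is meant for small RNA, while the probe annotation names a gene array, so the signals were taken as those of transcripts. Symbols came from the platform annotation, updated through RefSeq tables of GRCm38.p6, which held 13586 of the 13650 probe sets tested. RefSeq also gave gene order, RNA class and sequences.

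The 3 Col4a3-/-OPN-/- and 3 wild type arrays were fitted with limma 3.58.1 (lmFit, eBayes with an intensity trend, R 4.3.3), with Benjamini-Hochberg adjustment and a threshold of 0.05. SE is the standard error of a log2 difference from that fit. An exact test of 3 against 3 cannot go below a p of 0.1, so none was run. Of several probe sets of a gene (424 genes), that of highest mean signal over 9 arrays was taken. In 1 gene probe sets disagreed in sign at an unadjusted p under 0.05. The rule for named genes took the 10 higher and 10 lower genes with the smallest p, the 10 of each with the largest difference without overlap, and the 2 highest and 2 lowest of each of 48 lists, of which those are printed that help to describe a list; other list members at an unadjusted p under 0.05, the genes after Spp1, the RNA classes, Pf4, Syne1 and Gm3893 were chosen after their values were seen. Members and lists were chosen with earlier results of these data known. The fit was tested on simulated arrays. Alternatives were other normalization, filters, variance models, the replicate number as a block, all 9 arrays and leaving out each array; 3 were chosen after seeing the data, which left out Syne1 or removed the trend with gene span.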

Additional observations from a re-analysis of the deposited data

Results flagged for a closer look

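Outside the probe sets with 1 symbol, 2 signals lay far from wild type and no named comparison uses them. Probe set 17503531, with 3 symbols, had a log2 difference of -3.46 (SE 0.23, adjusted p = 0.00167 by limma over 3246 such probe sets). Probe set 17440132, with no symbol listed, had one of -1.66 (SE 0.17, adjusted p = 0.0161). All 3 Col4a3-/-OPN-/- hearts were below all 3 wild type hearts in both. Their genes are not named here.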

How the results depend on the processing

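No probe set was called in 19 of 22 alternative settings. The count was 2 when all probe sets above the median were tested together, and 0 to 7 when single hearts were left out (7 without Col4a3-/-OPN-/- heart 2, 1 without heart 3). Probe sets without overlap numbered 2860 with no filter, 1096 with a stricter one, 2883 to 3615 when single hearts were left out, and 2889 without heart 1 and the span trend, where fewer hearts must separate. Counts at an unadjusted p under 0.05 were 503 in the fit of all 9 arrays, 1516 with no filter and 596 with the stricter filter, against 1000. Higher ones numbered 369 without Col4a3-/-OPN-/- heart 1 and 329 with arrays centred. The direction of 136 named genes was recomputed in 2940 instances and turned in 9, in 6 genes. With single hearts left out, Treml1 lay between -0.070 and 0.20, Itga2b between -0.12 and 0.066, Xist between -0.071 and 1.95, Uty between -1.27 and 0.20, Kdm5d between -0.70 and 0.26 and Sftpb between -0.14 and 0.14. The turns of Xist, Uty and Kdm5d came without Col4a3-/-OPN-/- heart 2. Sftpb was -0.0035 with arrays centred and -0.13 without heart 1 and the span trend. Deviations from the group means had r of 0.03, 0.05 and 0.14 between same-numbered hearts of the groups. Between hearts of different numbers r lay between -0.16 and 0.12. Deviations of 3 hearts sum to 0 within a group, so these values cannot exclude pairing. The labels name no pairs, and the main fit used none. With a replicate block 0 probe sets were called, and 1117 were at an unadjusted p under 0.05. Of the 136 named genes, 50 moved by over 1.5 times when a heart was left out. Among them, Comp went to -0.19 and Hspb1 to -0.16 without wild type heart 2, Cdkn1a to -0.65 without wild type heart 3, and Cox7b to -0.20, Hk1 to 0.19, Cntn2 to 0.30, Mir5123 to 0.67 and Rcan1 to -0.81 without Col4a3-/-OPN-/- heart 1. Cxcl12 went to 0.25 without heart 2, and Nr1d1 to -0.25 and Gsta3 to 0.28 without heart 3. Signals near the limit of 5.21 restrict dim genes: in 464 genes tested, at least 1 group mean was below it.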

Other observations

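In a few genes single hearts stood far from others of their genotype. Rps13, a protein of the small ribosomal subunit, was 4.65, 7.77 and 7.56 in wild type, 7.92, 8.54 and 8.55 in Col4a3-/-OPN-/- and 4.95, 4.93 and 4.98 in Col4a3-/- hearts. Wild type heart 1 thus sat with the Col4a3-/- hearts, and the groups of the main comparison did not overlap, with a log2 difference of 1.68 (SE 0.68). Without wild type heart 1 it was 0.67. Ogdhl, a relative of 2-oxoglutarate dehydrogenase, had the same low hearts, at 5.06, 7.45 and 7.14, 8.37, 6.95 and 7.58 and 4.82, 4.58 and 5.09, and its difference of 1.08 became 0.34 without wild type heart 1. Gdpd3, a phosphodiesterase of the glycerophosphodiester family, was 5.36, 5.85 and 8.08 in double mutants and 8.48, 8.56 and 7.87 in wild type, so that double mutant heart 3 lay with wild type. Without that heart limma called Gdpd3 alone, at -2.70. Gm3893, on chromosome 4, was 6.54, 5.24 and 6.35 in double mutants and 5.11, 5.25 and 5.16 in wild type, high in hearts 1 and 3. It has 3 probe sets among the 7 called without heart 2. The cause of these deviations was not tested.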
